A study of Danio rerio with 20 samples.

Results

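A set of 5 zebrafish genes that stood high in every leukemia of high self-renewal and low in every leukemia of low self-renewal was examined. They are dachc (ENSDARG00000003142), a B3GNT5 paralogue (ENSDARG00000018971), marcksl1a (ENSDARG00000039034), a HIVEP2 gene (ENSDARG00000039987) and a FAM78A gene (ENSDARG00000088222), 5 of 32105 genes in the table. They were selected on their counts in the same high and low tumors described here, so their difference between the groups is a description and carries no test. All 5 were among the 16008 genes with enough counts to be tested, and their high group alone was enough to pass that filter. The question for these genes is how even they are over the high tumors and how low they are in each low tumor.

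The study compared leukemias that differ in self-renewal, the share of their cells able to start a new leukemia after transfer. Leukemia cells of CG1 strain zebrafish, given as blood cells in the labels, were collected as bulk pellets, and polyA RNA was sequenced on an Illumina HiSeq. The 20 libraries come from 11 tumors, 9 with 2 libraries and 2 (8.4.1.1.1 and 14.1.1.1) with 1. The labels mark 8 tumors as high (8.4.1.1.1, 14.1.1.1, 4.3.1, 8.3, 2.1, 15.2, 13.1.1 and 7.2.1) and 3 as low (9.2, 10.2 and 12.2). The series text speaks instead of 6 high tumors, above 1% of cells, and 5 low ones, below it, and does not name them, so the labels of the samples were followed. All tumors share the strain, and the labels name no oncogene, driver promoter, age or treatment for either group. They do not say whether the tumors came from separate fish, so the spread between tumors may be smaller than that between fish. Libraries of a tumor were summed, and levels are given as CPM, counts scaled to a common normalized library size. They are not scaled to gene length, so levels of different genes cannot be compared.

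Summed tumors held 11573276 to 32466048 counts, with 27432733 in 9.2, 28727277 in 10.2 and 16129049 in 12.2. T-cell transcripts separated the groups, since the summed level of 25 T-cell markers ran from 6117 to 7921 CPM over the high tumors and was 132.6, 498.6 and 1499 CPM in 9.2, 10.2 and 12.2. The summed level of 20 B-cell markers was 30.21 to 124.9 CPM in the high tumors and 1919, 1406 and 650.7 CPM in the same low tumors. Tumor 12.2 therefore carried both sets, and its libraries differed more from each other than those of any other tumor. In bulk RNA, fewer cells of a type and less RNA per cell cannot be told apart, and the part of these lineage differences in the levels below was not tested.

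The 5 genes belong to unrelated families. Dachshund proteins such as dachc are nuclear cofactors that act with EYA and sine oculis homeobox proteins on transcription, first known from eye and limb development in Drosophila. HIVEP proteins, the vertebrate relatives of Drosophila Schnurri, are large zinc finger proteins that bind sites like those of NF-kB and work with SMAD proteins, and in mice HIVEP2 acts in T cells. B3GNT5 encodes, in humans and mice, the enzyme that adds N-acetylglucosamine to lactosylceramide and so begins the lacto-series of glycolipids at the cell surface. MARCKS-like proteins such as marcksl1a lie under the plasma membrane, where they bind actin, calmodulin and phosphoinositides and are released by protein kinase C. FAM78A is named for its sequence family.

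The levels by tumor show that the label "uniformly high" holds best for dachc and least for B3GNT5. The same levels show that absence from the low tumors is close for B3GNT5 alone. HIVEP2 was plainly present in all 3 low tumors, and the other 3 genes were low there but above counting error.

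Among the nuclear factors, dachc ranged from 30.75 CPM in 13.1.1 over a median of 35.04 to 43.01 in 4.3.1, with a mean of 36.03 ± 3.75 CPM (SD, n = 8). In the low tumors dachc stood at 1.749 CPM in 9.2, 2.194 in 10.2 and 1.353 in 12.2. The groups lay far apart, and the lowest high tumor held 14.02 times the level of the highest low tumor. The fitted difference of dachc was 4.34 ± 0.24 (SE) on the log2 scale.

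The other nuclear factor, HIVEP2, ranged from 432.9 CPM in 8.4.1.1.1 over a median of 630.7 to 752.5 in 14.1.1.1, with a mean of 632 ± 108 CPM (SD, n = 8). Its level in the low tumors was 97.32 CPM in 9.2, 65.62 in 10.2 and 103.5 in 12.2. No low tumor reached the high range, but the lowest high tumor was 4.18 times the highest low one, the narrowest gap of the 5 genes. The low mean of HIVEP2 was 14.1% of its high mean, and the fitted difference was 2.83 ± 0.25 on the log2 scale.

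The glycolipid enzyme gene B3GNT5 ranged from 53.57 CPM in 14.1.1.1 over a median of 102 to 174.8 in 4.3.1, with a mean of 111 ± 46.1 CPM (SD, n = 8). Its counts in the low tumors were 3 in 9.2, 1 in 10.2 and 3 in 12.2, or 0.1071, 0.03226 and 0.1845 CPM. The second library of 9.2 and that of 10.2 held no count at all. Over all tumors of a group, 18976 counts in the high tumors stood against 7 in the low ones, a ratio of 1274 per normalized library size with an exact 95% interval of 618.2 to 3169 for counting error only. The fitted difference was 10.08 ± 0.72 on the log2 scale, and with so few low counts its size depends on how small counts are treated.

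The membrane-linked gene marcksl1a ranged from 110.3 CPM in 8.3 over a median of 173.5 to 228.1 in 13.1.1, with a mean of 167 ± 41.5 CPM (SD, n = 8). Its low-tumor levels were 3.925 CPM in 9.2, 8.162 in 10.2 and 7.566 in 12.2. Every high tumor was above every low tumor, by a factor of at least 13.5. The fitted difference was 4.68 ± 0.37 on the log2 scale.

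The last gene, FAM78A, ranged from 24.38 CPM in 8.4.1.1.1 over a median of 39.09 to 51.87 in 14.1.1.1, with a mean of 38.1 ± 9.72 CPM (SD, n = 8). Its low-tumor levels were 0.8208 CPM in 9.2, 0.9678 in 10.2 and 2.645 in 12.2. The groups did not overlap, and 12.2 was the highest of the low tumors. The fitted difference was 4.71 ± 0.47 on the log2 scale, with the lowest high tumor 9.22 times above 12.2.

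**Figure D1:**
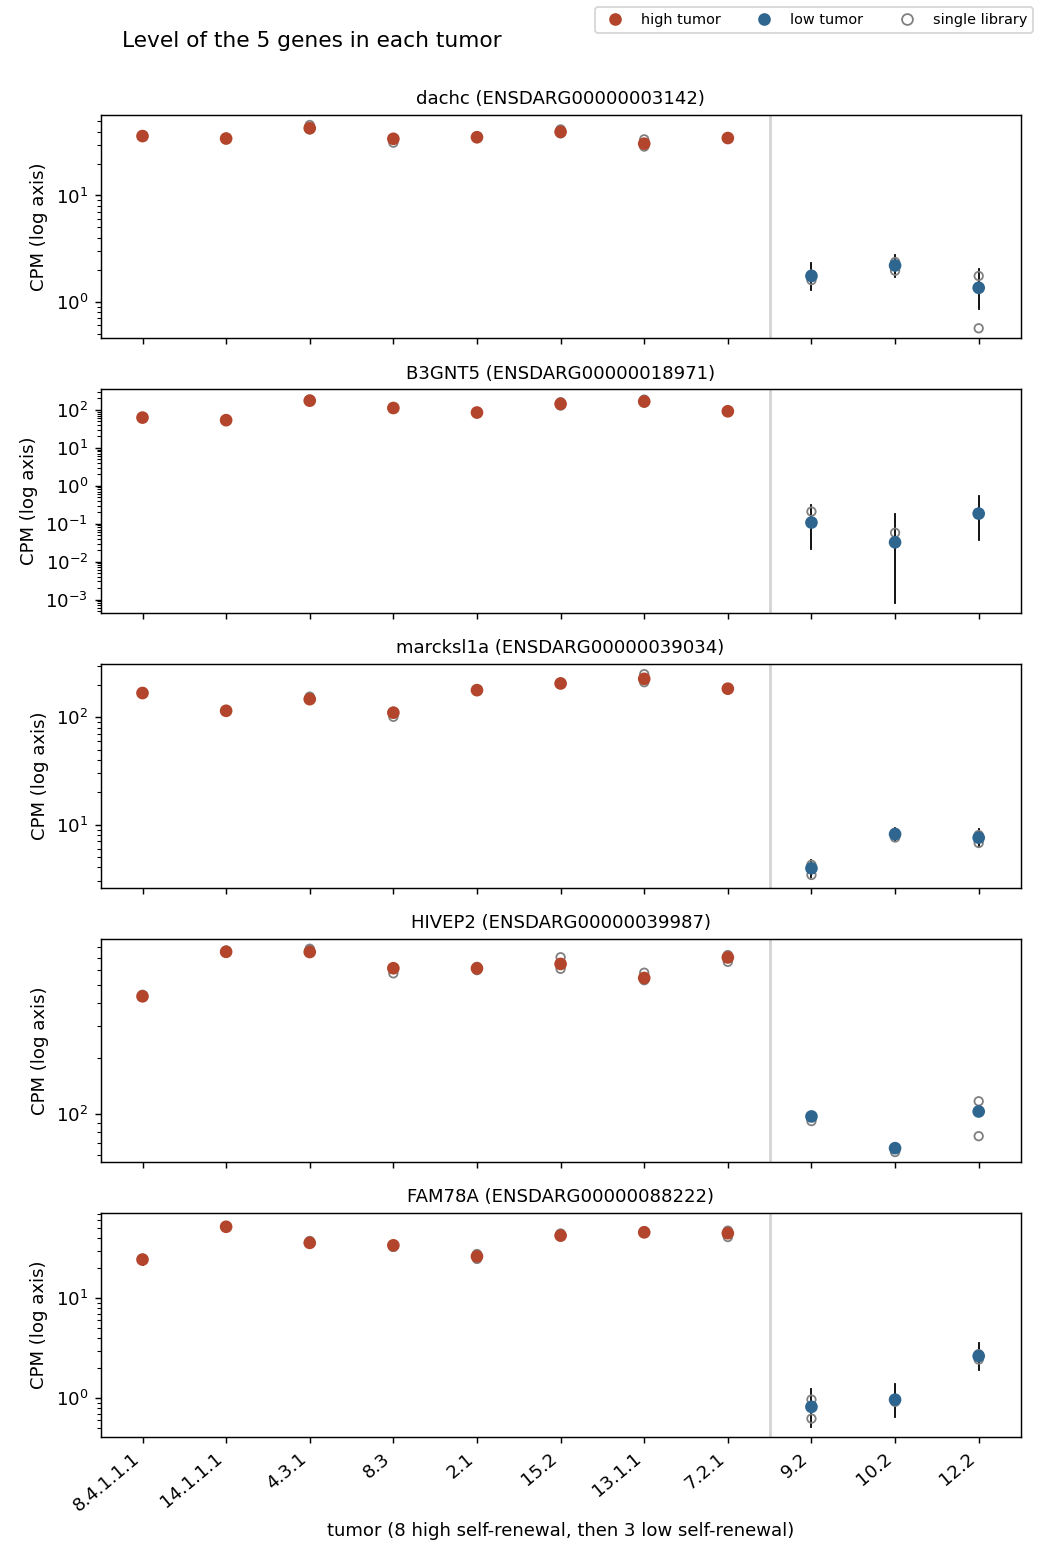
Level of each of the 5 genes in each of the 11 tumors, as CPM on a log axis, with high tumors to the left of the grey line and low tumors to the right; 1 point is 1 tumor. All high tumors sit above all low tumors in every panel, with the smallest gap for HIVEP2 (4.18-fold) and the low points of B3GNT5 resting on 1 to 3 counts.

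Over all genes tested, 4.0% were called higher in the high tumors and 5.20% lower by edgeR's quasi-likelihood test with a Benjamini-Hochberg adjusted p under 0.05. Every high tumor lay above every low tumor for 6.01% of genes. All 5 genes fell in both sets, which follows from how they were selected.

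Evenness over the high tumors was measured as the coefficient of variation (CV, the SD as a percent of the mean) and as the SD of log2 CPM. Because that SD varies with level, each gene was also set beside genes of like level. The genes were chosen as uniformly high over these same tumors, so their places among other genes are a description only. The dachc transcript was the most even, with a CV of 10.4% and an SD of 0.15 on the log2 scale. Only 0.693% of all tested genes, 111 of 16008, had a smaller SD, and among 2149 genes within 0.5 log2 units of its level the number was 25, or 1.16%. Counting alone would give dachc a CV of 3.94%, which is 14.3% of its variance. Its highest tumor exceeded its lowest 1.40-fold.

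HIVEP2 came next, with a CV of 17.1% and an SD of 0.27, and 10.3% of tested genes had a smaller SD. The CV fell to 11.8% without tumor 8.4.1.1.1, its lowest. Of the 155 genes at a like level, 14.2% were more even than HIVEP2. The highest over the lowest tumor was 1.74-fold.

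The transcripts of marcksl1a and FAM78A were less even, with CVs of 24.8% and 25.5%. Their SDs were 0.38 and 0.39 on the log2 scale, and 4189 and 4486 of all 16008 tested genes had a smaller one. Among genes of like level, 46.2% were more even than marcksl1a and 48.1% more even than FAM78A. Their highest tumors exceeded their lowest by 2.07-fold and 2.13-fold.

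B3GNT5 was uneven. Its CV was 41.4%, its SD was 0.63, and the highest tumor exceeded the lowest 3.26-fold. Of 1250 genes at a like level, 83.8% were more even. The median SD over all genes tested was 0.61, and so was that of the 641 genes called higher. The wide gap of B3GNT5 thus came with a spread at or above that of the usual gene.

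**Figure D2:**
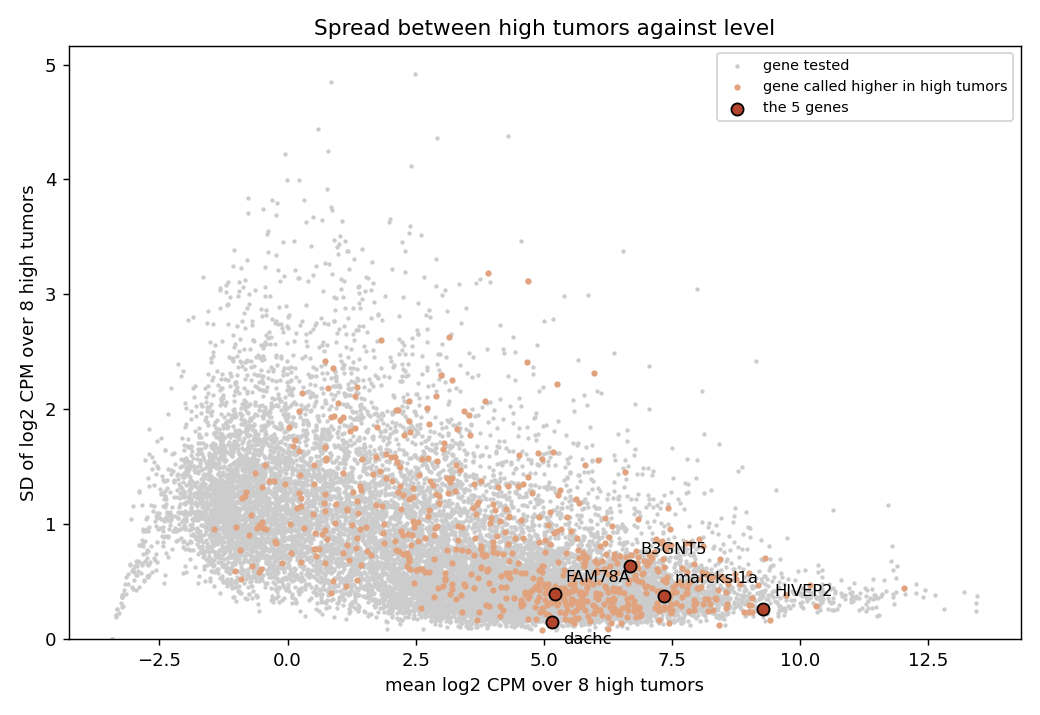
SD of log2 CPM over the 8 high tumors against mean log2 CPM in those tumors, for the tested genes and the 5 named ones; 1 point is 1 gene. The lower edge of the cloud holds dachc at an SD of 0.15, while B3GNT5, at 0.63, lies above most genes of its level.

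Libraries of the same tumor lay closer together than the tumors did. In the 6 high tumors with 2 libraries, the SD between libraries was 0.09 for dachc, 0.12 for B3GNT5, 0.09 for marcksl1a, 0.08 for HIVEP2 and 0.08 for FAM78A on the log2 scale. The spread between tumors was above these values for all 5 genes, and least so for dachc. The high tumors with 1 library, 8.4.1.1.1 and 14.1.1.1, have no such value. They held the lowest and the highest level of HIVEP2 and of FAM78A, and 14.1.1.1 held the lowest of B3GNT5. The series text calls such libraries biological replicates and does not say how they were separated.

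The high tumors did not keep one order over the 5 genes. Tumor 15.2 was above the high mean for all 5, by 0.25 log2 units on average, and 8.4.1.1.1 stood lowest on average, at -0.35. Yet 14.1.1.1 held the highest level of HIVEP2 and FAM78A and the lowest of B3GNT5. Tumor 13.1.1 held the highest marcksl1a and the lowest dachc, and 4.3.1 the highest of both dachc and B3GNT5. The most alike pair over all 11 tumors was dachc and marcksl1a, whose centred log2 CPM differed by 0.46 (root mean square). The least alike was B3GNT5 and HIVEP2 at 2.82. These distances include the gap between the groups, on which the genes were selected, so they do not describe order within the high tumors.

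Low tumors were then read one by one. The 49, 68 and 22 counts of dachc in 9.2, 10.2 and 12.2 gave exact Poisson 95% intervals of 1.294 to 2.312, 1.703 to 2.781 and 0.8481 to 2.049 CPM, which overlap. For B3GNT5 the intervals were 0.02208 to 0.3129, 0.0008168 to 0.1797 and 0.03806 to 0.5393 CPM, so no order of the low tumors can be read from its counts. Intervals here and below cover counting error only. For marcksl1a the interval of 9.2, 3.226 to 4.731 CPM, lay below those of 10.2 (7.187 to 9.232) and 12.2 (6.288 to 9.028). For FAM78A the interval of 12.2, 1.914 to 3.563 CPM, lay above those of 9.2 (0.5203 to 1.232) and 10.2 (0.653 to 1.382). For HIVEP2 the interval of 10.2, 62.8 to 68.53 CPM, lay below those of 9.2 (93.7 to 101) and 12.2 (98.64 to 108.6).

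Tumor 12.2 was labelled low and counted as low when the genes were selected, so its low level of all 5 is part of that choice. Its place can still be set beside the T-cell markers, as the share of the way from the mean of 9.2 and 10.2 to the high mean on the log2 scale. The share was -12.2% for dachc, 8.66% for B3GNT5, 8.53% for marcksl1a, 12.6% for HIVEP2 and 28.2% for FAM78A. Of 25 T-cell markers, 22 differed by over 1 log2 unit between the high mean and the mean of 9.2 and 10.2. Over these the median share was 65.7%, with 19 above 50%. The kinase gene lck, needed for T-cell receptor signalling, stood at 78.8%, the coreceptor gene cd8a at 79.3% and the adaptor gene sh2d1ab at 94.7%. The exceptions were satb1a at -6.22%, cd99 at -1.78% and a SATB1 paralogue at 47.9%. Tumor 12.2 thus held most of these markers well above the mean of 9.2 and 10.2. In log2 CPM, 10.2 was far from 12.2 for cd8a (-1.97 against 5.79). It was close for ZAP70 (7.26 against 7.55), TCF7 (5.75 against 5.92) and bcl11ba (6.17 against 6.36), and higher for LEF1 (0.53 against 0.19). All 5 genes stood at 28.2% of the way or less. FAM78A was the one of them clearly above both other low tumors. Genes called higher had a median share of 16.6%, and 61.9% of these 641 genes were at or below the share of FAM78A. A low place in 12.2 was thus common among them, but they were called with 12.2 counted as low, which favours such a place.

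Both libraries of 12.2 were low in all 5 genes. The first library held 1.749 CPM of dachc (19 counts) and the second 0.5627 (3 counts). For B3GNT5 they held 0.1841 CPM (2 counts) and 0.1876 CPM (1 count). The first was the higher for marcksl1a (8.008 against 6.753 CPM), for HIVEP2 (117.5 against 76.16 CPM) and for FAM78A (2.761 against 2.438 CPM). Neither library reached the lowest high tumor for any of the 5.

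**Figure D3:**
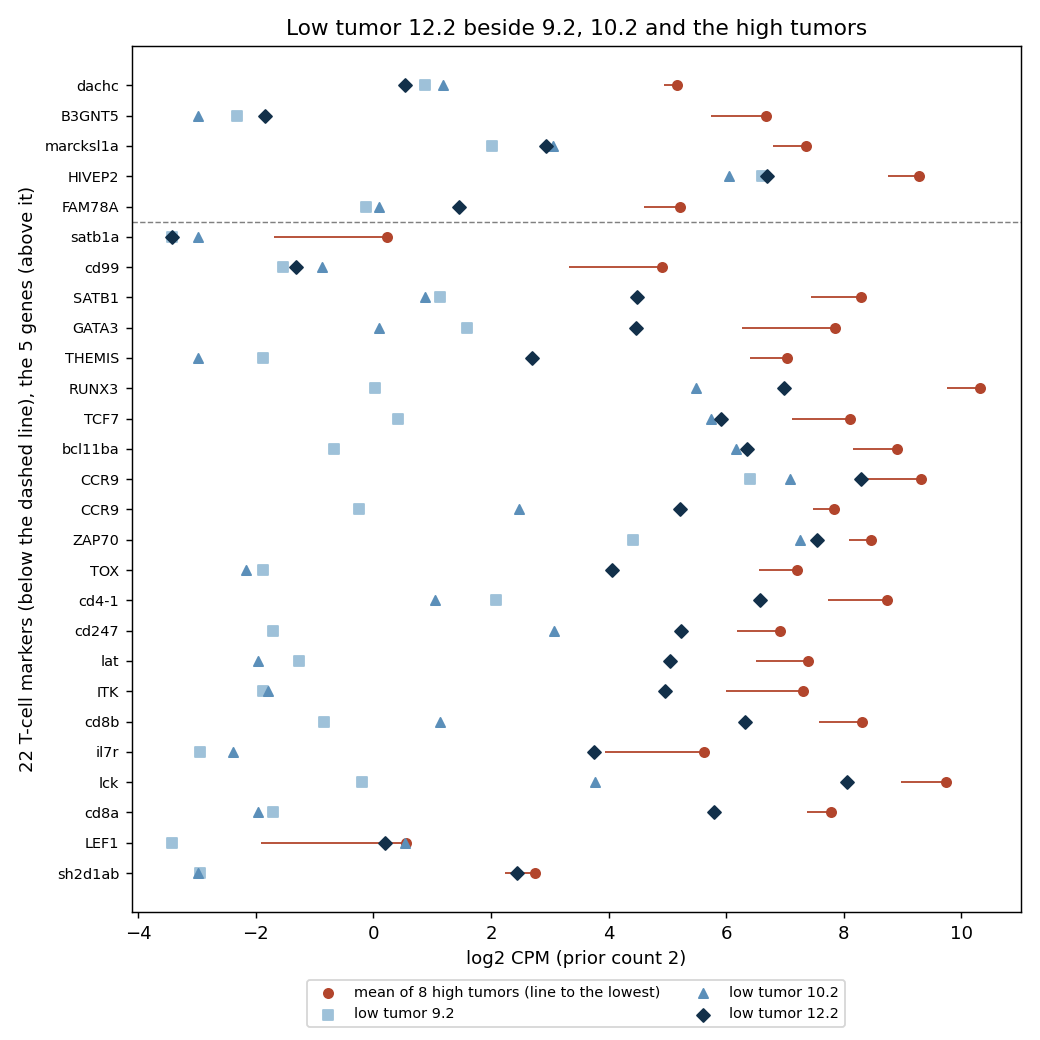
Log2 CPM of the 5 genes (above the dashed line) and of the T-cell markers (below it) in low tumors 9.2, 10.2 and 12.2 and in the high tumors. For the 5 genes 12.2 lies between -12.2% and 28.2% of the way to the high mean. FAM78A, at 28.2%, is clearly above both other low tumors. The markers with a wide gap lie at a median of 65.7%.

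No tested paralogue of the 5 genes, taken by family name, was called. For B3GNT5 only genes of that same symbol were taken, and the second of them had too few counts to be tested. Other B3GNT genes are given with the glycosyltransferases below, where a B3GNT2 gene and B3GNT7 were called. The table held 13 paralogues, of which 10 had enough counts to be tested, and 0 were called by edgeR's quasi-likelihood test (0 at an unadjusted p under 0.05, and 0 by DESeq2). High and low tumors overlapped for all 10. Over all genes 4.0% were called higher, 5.20% lower and 6.01% had every high tumor above every low one, so 0 of 10 is near the background and is not particular to the paralogues. The difference between each gene and its paralogues was not tested. The counting does not state how reads that match several paralogues were assigned, so values within a family are uncertain.

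In the dachshund family, a DACH2 gene (ENSDARG00000010132) stood at 1.62 ± 2.07 CPM in the high tumors (SD, n = 8) and 1.60 ± 0.602 in the low (SD, n = 3). Its high mean rested on tumor 13.1.1, at 6.492 CPM. The other relatives were close to absent, with 36 counts of dachd and 9 of a second DACH2 gene (ENSDARG00000034785) over all libraries. The second B3GNT5 gene (ENSDARG00000004396) had 30 counts in all. These 3 genes had too few counts to be tested.

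In the MARCKS family, marcksl1b (ENSDARG00000035715) stood at 43.9 ± 20.8 CPM in the high tumors (SD, n = 8). Its low tumors spread from 2.07 CPM in 9.2 through 12.97 in 10.2 to 47.67 in 12.2. Tumor 12.2 was thus above the high mean of marcksl1b while it was low in marcksl1a. The fitted difference of marcksl1b was 1.07 ± 0.72 on the log2 scale (edgeR adjusted p = 0.378). It was 2.58 without 12.2 and 0.53 without 9.2, and was called in neither case. The MARCKS genes differed by 0.20 ± 0.51 (ENSDARG00000004049) and 0.62 ± 0.73 (ENSDARG00000008803), and neither was called.

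In the HIVEP family, HIVEP1 (ENSDARG00000103658) stood at 69.5 ± 22.9 CPM in the high tumors and 60.4 ± 13.3 CPM in the low ones. Its fitted difference was 0.20 ± 0.30 on the log2 scale (edgeR adjusted p = 0.724). The relative nearest by name, hivep2b (ENSDARG00000018773), differed by 0.53 ± 1.51, and hivep3a (ENSDARG00000075928) by -1.24 ± 0.75. For hivep3b (ENSDARG00000037154) the difference was 0.11 ± 1.06, and its direction turned under DESeq2, to -0.71. None of the HIVEP relatives was called.

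In the FAM78 family, fam78aa (ENSDARG00000101217) stood at 2.02 ± 1.19 CPM in high tumors and 1.08 ± 0.789 CPM in low ones, a difference of 0.89 ± 0.68 on the log2 scale that was not called. FAM78B (ENSDARG00000063018) was found in a few tumors. It had 240 counts in 8.3, 63 in 15.2 and 164 in 7.2.1, and 0 in the other 5 high tumors. The low tumors held 2 counts in 9.2 and 0 in 10.2 and 12.2. The fitted difference of FAM78B was 6.15 ± 2.87 on the log2 scale and was not called (edgeR p = 0.0536, adjusted p = 0.205). FAM78A was present in all 8 high tumors at 24.38 CPM or more.

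**Figure D4:**
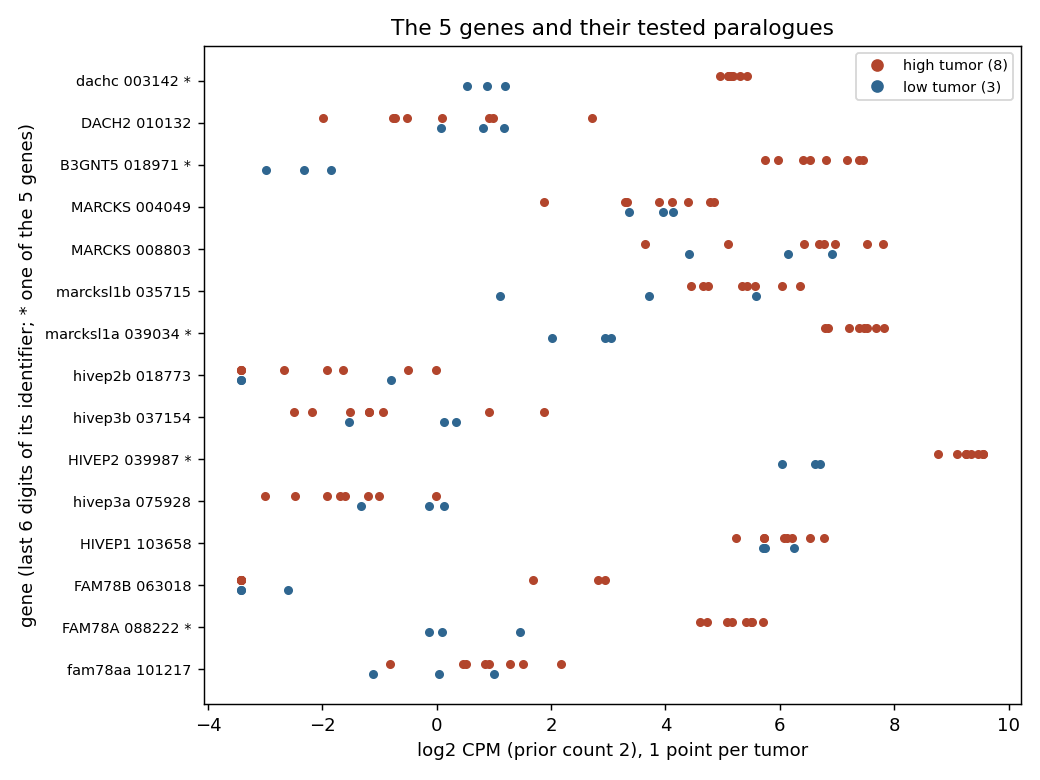
Log2 CPM (prior count 2) of the 5 genes, marked with an asterisk, and of their tested paralogues, 1 point per tumor for 8 high and 3 low tumors. The groups are apart for the 5 genes and overlap for the 10 paralogues.

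Partners of the 5 genes were taken from lists built by name. Leaving out the 5 genes, the lists held 165 genes, 130 of them tested, of which 18 were called higher and 11 lower. Against the background of 4.0% higher and 5.20% lower, with a median log2 difference of 0.04 over all genes, the lists differed among themselves. Calls depended on single low tumors: without 10.2, 3 genes were called higher and 4 lower, without 9.2, 7 were called higher, and without 12.2, 4 were called lower. Lower calls also numbered 6 without 2.1 and 7 without 15.2. The genes called whichever tumor was left out were 4 of 29, namely PRKCE, PRKCB, ST3GAL4 and B3GALT2. Calls over all genes fell too without 10.2, from 641 to 196 higher and from 832 to 403 lower. DESeq2, which made more calls over all genes (1754 higher and 1417 lower), gave the 29 genes adjusted p of 0.00876 or less. B3GNT7 alone had no DESeq2 value.

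Of the dachshund network, 14 of 32 genes were tested, 1 was called higher, 1 was called lower and the median log2 difference was 0.18. A SKI gene (ENSDARG00000042151), whose human product is a repressor of SMAD signalling related in sequence to dachshund proteins, was lower, with 3.13 ± 4.30 CPM in the high and 34.5 ± 9.49 CPM in the low tumors. Its difference was -3.46 ± 0.89 on the log2 scale (edgeR adjusted p = 0.034). SKI was not called without any one of 8.4.1.1.1, 14.1.1.1, 2.1, 15.2, 9.2, 10.2 or 12.2 (edgeR adjusted p 0.0509 to 0.116).

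Of the glycosyltransferase genes listed by name around B3GNT5, not all of them glycolipid enzymes, 30 of 43 were tested, 5 rose and 5 fell. The median log2 difference was 0.20. The galactosyltransferase gene b4galt5 (ENSDARG00000037815), whose product in mammals makes lactosylceramide, the substrate of B3GNT5, was at 6.56 ± 3.88 CPM in the high and 0.197 ± 0.256 CPM in the low tumors. The fitted difference of b4galt5 was 5.13 ± 1.02 on the log2 scale (edgeR adjusted p = 0.00983, and 0.055 without tumor 10.2). The galactosyltransferase gene b3galt4 (ENSDARG00000076218), which in mammals acts in the ganglioside branch, was called higher too (edgeR adjusted p = 0.0181, 0.0648 without 9.2 and 0.0865 without 10.2). It had 378 counts in the high tumors and 2 in the low ones, a pooled ratio of 88.8 with an exact 95% counting interval of 24.4 to 736. Also higher were the fucosyltransferase gene FUT8 (ENSDARG00000015449), by 2.09 ± 0.41 and not called without 10.2 (edgeR adjusted p = 0.0626), and the sialyltransferase gene ST3GAL3 (ENSDARG00000015252), by 1.79 ± 0.42 and not called without 10.2 (0.117) or 12.2 (0.0775). A B3GNT2 gene (ENSDARG00000052376) was higher by 3.35 ± 0.90 at only 0.714 CPM in the high tumors. Its call was lost without any one of 8.4.1.1.1, 2.1, 15.2, 13.1.1, 9.2, 10.2 or 12.2 (edgeR adjusted p 0.0529 to 0.132). The other B3GNT2 gene (ENSDARG00000091902) and the other ST3GAL3 gene (ENSDARG00000015374) differed by 0.16 ± 0.64 and 0.74 ± 0.49, and neither was called.

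The enzymes that fell were led by the sialyltransferase gene ST3GAL4 (ENSDARG00000041006), at 1.33 ± 1.22 CPM in the high and 91.3 ± 82.7 CPM in the low tumors. Its difference was -6.10 ± 0.88 on the log2 scale (edgeR adjusted p = 0.0017). The galactosyltransferase gene B3GALT2 (ENSDARG00000102061) fell by 2.66 ± 0.50 (edgeR adjusted p = 0.00746). B3GNT7 (ENSDARG00000038489), a relative of B3GNT5 with another acceptor in mammals, had a difference of -4.09 ± 1.00, and without 12.2 the value was -1.78 and not called (edgeR adjusted p = 0.344). The difference of B4GAT1 (ENSDARG00000077583) was -0.92 ± 0.20 and lost its call without 9.2 (0.069) or 10.2 (0.104). The galactosyltransferase gene b4galt1 (ENSDARG00000002634) differed by -3.46 ± 0.95 and lost its call in 10 of the fits that left out a tumor (edgeR adjusted p 0.0506 to 0.209).

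Of the MARCKS partners, 39 of 43 genes were tested, 10 rose and 3 fell, with a median log2 difference of 0.28. Protein kinase C genes, whose products phosphorylate MARCKS proteins, were among both. Others of them were not called, from -1.97 ± 0.78 for PRKCA (ENSDARG00000099841) to 3.67 ± 1.43 for PRKCQ (ENSDARG00000034173). PRKCE (ENSDARG00000069928) stood at 102 ± 19.2 CPM in the high and 9.35 ± 6.33 CPM in the low tumors, higher by 3.44 ± 0.42 on the log2 scale (edgeR adjusted p = 0.000645). PRKCB (ENSDARG00000022254) was higher by 2.13 ± 0.42 (edgeR adjusted p = 0.00955). The other PRKCB gene (ENSDARG00000008723) differed by 1.96 ± 1.18 and was not called. A PRKCH gene (ENSDARG00000018382) was lower, with a difference of -4.88 ± 1.06, and was not called without 9.2 (edgeR adjusted p = 0.0541) or 10.2 (0.0502). The other PRKCH gene (ENSDARG00000043243), also named after its value was seen, was called the other way, higher by 4.28 ± 1.22 (edgeR adjusted p = 0.0477), a call lost in 9 of the fits that left out a tumor (0.0579 to 0.175). PRKCZ (ENSDARG00000043332) had a difference of -3.76 ± 0.92, and without 12.2 the value was -1.97 and not called (edgeR adjusted p = 0.266).

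The PIP5K and PIP4K kinase genes, whose products make the phosphoinositides that MARCKS proteins bind, were mixed, with 3 of 8 called higher and 5 not called. The kinase genes pip4k2ab (ENSDARG00000063544) and pip5k1aa (ENSDARG00000100396) were higher by 1.24 ± 0.23 and 1.13 ± 0.23 on the log2 scale. Without 10.2 neither pip4k2ab nor pip5k1aa was called (edgeR adjusted p = 0.0501 and 0.0679). PIP5K1C (ENSDARG00000100313), named here after its value was seen, was higher by 3.53 ± 0.94 and lost its call without 15.2, 7.2.1, 9.2, 10.2 or 12.2 (edgeR adjusted p 0.0544 to 0.108). The 5 uncalled genes ranged from -2.36 ± 0.96 for PIP5K1B (ENSDARG00000006508) to 1.05 ± 1.28 for pip5k1ca (ENSDARG00000076001). The actin and phosphatase regulator gene phactr4a (ENSDARG00000015552) was higher by 0.78 ± 0.17, not called without 9.2 (edgeR adjusted p = 0.0603). The phospholipase gene PLCG2 (ENSDARG00000068763), which acts in B-cell receptor signalling, differed by -1.98 ± 0.49 and lost its call without 2.1, 9.2, 10.2 or 12.2 (edgeR adjusted p 0.054 to 0.0949). PLCG1 (ENSDARG00000038442) was called the other way, higher by 1.1 ± 0.30 (edgeR adjusted p = 0.0431). The PLCG1 call was lost in 7 of the fits that left out a tumor (edgeR adjusted p 0.0536 to 0.181).

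Of the HIVEP and NF-kB list, all 45 genes were tested, 2 rose, 2 fell and 41 were not called, with a median log2 difference of 0.07. None of the NF-kB subunit genes was called: the differences were 0.05 ± 0.25 for RELA, -0.24 ± 0.29 for nfkb1, -0.05 ± 0.43 for nfkb2, -0.15 ± 0.47 for relb and 0.96 ± 0.89 for REL. The SMAD genes, whose products bind HIVEP proteins in mammals and frogs, went both ways. SMAD1 (ENSDARG00000027199) was higher by 1.66 ± 0.42 and not called without 9.2 (edgeR adjusted p = 0.109) or 10.2 (0.119). SMAD4 (ENSDARG00000012649) was higher by 1.08 ± 0.28, and SMAD5 (ENSDARG00000037238) differed by -1.44 ± 0.36. The called SMAD4 gene lost its call without any one of 14.1.1.1, 2.1, 15.2, 13.1.1, 7.2.1, 9.2 or 10.2 (edgeR adjusted p 0.0504 to 0.141). SMAD5 lost its call without 2.1, 15.2, 9.2, 10.2 or 12.2 (edgeR adjusted p 0.0553 to 0.0953). The other SMAD4 gene (ENSDARG00000075226) differed by -0.22 ± 0.23 and was not called. A TRAF2 gene (ENSDARG00000078378), an adaptor of tumor necrosis factor receptors, differed by -4.65 ± 1.21. Its level was low, 0.178 CPM in the high and 4.67 CPM in the low tumors. It was not called in 8 of the fits that left out a tumor (edgeR adjusted p 0.051 to 0.169). The other TRAF2 gene of that symbol (ENSDARG00000030173) differed by 0.07 ± 0.39 and was not called.

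**Figure D5:**
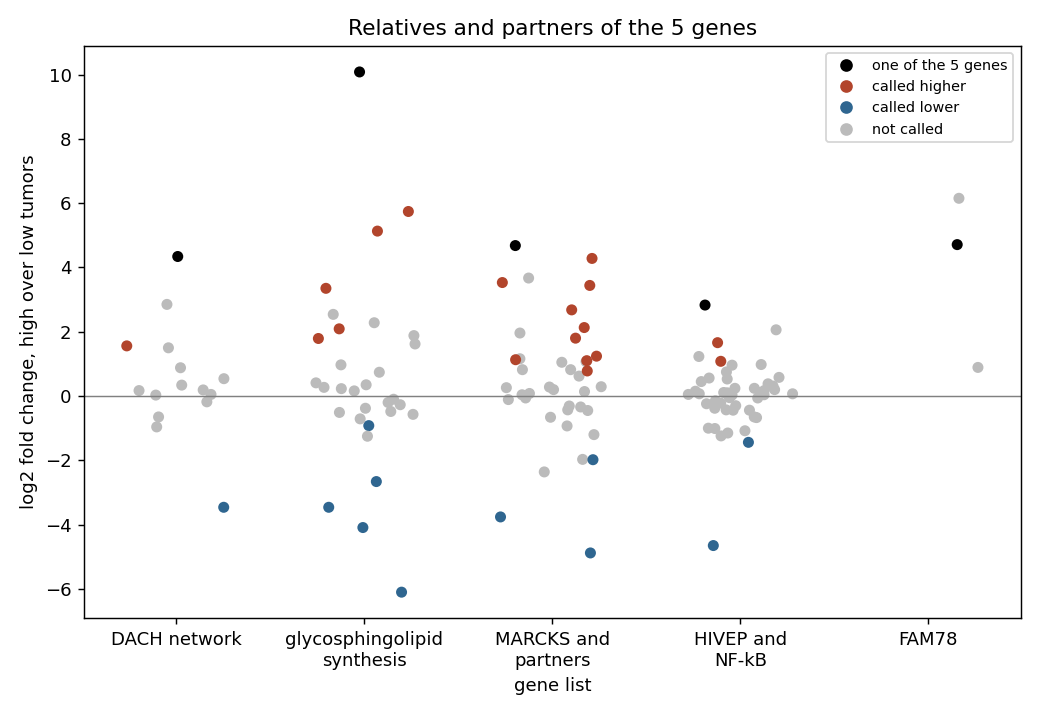
Log2 fold change, high over low tumors, of every tested gene of the 5 partner lists, 1 point per gene, with called genes and the 5 named genes marked. The 5 named genes lie between 2.83 and 10.08, and the list medians without them lie between 0.07 and 0.28 for the 4 larger lists.

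Genes most like each of the 5 were sought by the root mean square difference of centred log2 CPM over the 11 tumors. The smallest distance was that of HIVEP2 to VASP (ENSDARG00000099690), an actin regulator, at 0.26. Next for HIVEP2 came the kinase gene MARK4 (ENSDARG00000024966) at 0.30 and ESYT2 (ENSDARG00000030824), a lipid transfer protein gene, at 0.33. For dachc the nearest were the phosphatase gene PTPN9 (ENSDARG00000077495) at 0.49, PRKCE at 0.53 and the actin-binding gene triobpa (ENSDARG00000075870) at 0.63. For FAM78A they were the potassium channel gene kcnc4 (ENSDARG00000061288) at 0.47, VAV3 (ENSDARG00000075962), an exchange factor of lymphocyte receptor signalling, at 0.62 and fam49al (ENSDARG00000035907) at 0.63. For marcksl1a they were VAV3 at 0.62, PRKCE at 0.67 and xkr5a (ENSDARG00000103017) at 0.71. For B3GNT5 the nearest was the lymphocyte integrin gene itgb7 (ENSDARG00000044318) at 0.90. Then came the glycosyltransferase gene MGAT4C (ENSDARG00000041791) at 1.1 and the semaphorin gene sema4e (ENSDARG00000052997) at 1.29. The nearness of all these genes follows from the same gap between the groups and was not tested. Distances grow with the size of that gap, so they cannot be compared between the 5 genes.

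Neighbouring genes were taken in RefSeq gene order, a choice made after the values were known. Around dachc, UBAC2 differed by 0.59 ± 0.44, MZT1 by 0.74 ± 0.32, bora by -0.07 ± 0.67, DIS3 by -0.07 ± 0.24 and igf2bp2b by -2.72 ± 1.34 on the log2 scale. Beside marcksl1a, BSDC1 differed by 0.07 ± 0.34 and ftr70 by -1.99 ± 1.12. None of these 7 was called by edgeR's quasi-likelihood test, and MZT1 alone of them had every high tumor above every low tumor. Against the 4.0% called higher, 5.20% called lower and 6.01% apart over all genes, these counts are near the background. For the other 3 genes no neighbours were looked up, since their symbols do not point to one paralogue.

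Marker lists of other cell types were read beside these results, with calls from the same edgeR test. Of the T-cell markers, 10 of 25 were called higher and 0 lower, and of the tested B-cell markers 12 of 18 were called lower and 0 higher. Over all genes, 4.0% were called higher and 5.20% lower. In the other lists, 1 of 19 tested myeloid, 1 of 9 erythroid, 1 of 5 thrombocyte and 1 of 5 kidney tubule markers were called lower. None of them was called higher, and none of the 5 tested natural killer markers was called. By mean CPM, which is not scaled to gene length, RUNX3 and lck stood first among the T-cell markers. Their medians in the high tumors were 1291 and 876.9 CPM. Markers named as leading below were picked in the same way. EBF1 and cd40 led the B-cell markers, with EBF1 at a median of 1.05 CPM in the high tumors and 673 CPM in 9.2. The groups overlapped for cd40, at 21.43 to 111.8 CPM in the high tumors and 45.54, 215.6 and 136.5 CPM in 9.2, 10.2 and 12.2. The B-cell sum of the high tumors rested largely on cd40. Myeloid markers, led by srgn and nccrp1, summed to 75.71 to 315.4 CPM in the high and 143.1, 307.4 and 278.5 CPM in the low tumors. Erythroid markers, led by tfr1a and UROD, summed to 41.97 to 309.7 CPM against 201.9, 227.9 and 384.8 CPM. Both lists overlapped between the groups. The erythroid sum rested largely on tfr1a, at 23.22 to 272.5 CPM in the high tumors and 176.5, 190.1 and 325.2 CPM in 9.2, 10.2 and 12.2. Natural killer markers, led by cd226 and il2rb, summed to 85.95 to 776.8 CPM in the high tumors. They were at 0.6423, 2.645 and 219.9 CPM in 9.2, 10.2 and 12.2, so 12.2 was within the high range. That sum rested largely on cd226, at 83.39 to 673.5 CPM in the high tumors and 209.8 CPM in 12.2. Thrombocyte markers, led by the FN1 genes, summed to 1.364 to 17.86 CPM in the high tumors and 4.532, 4.226 and 36.91 CPM in 9.2, 10.2 and 12.2. In 12.2 the thrombocyte sum rested largely on a single FN1 gene (ENSDARG00000019815), at 35.37 CPM. Kidney tubule markers, led by SLC20A1 and SLC4A4, stood at 116.6 to 522.2 CPM in the high tumors, with 1 of the 12 at 0 in all tumors. They were at 1367, 208.3 and 139.8 CPM in 9.2, 10.2 and 12.2. In the high tumors that sum rested largely on SLC20A1, at 103.3 to 513.8 CPM, and in 9.2 on SLC4A4, at 1030 CPM. The part of these lists in the levels of the 5 genes was not tested.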

How the data were processed

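Bulk polyA RNA of 20 libraries from 11 zebrafish leukemias was analysed. The authors deposited raw counts per gene, whole numbers without normalization, with 6015050 to 16951341 per library. STAR, Picard and featureCounts on GRCz10 are named per the submitters' processing notes; settings, strand and annotation release were not given in the sources used here. Antisense and near-identical genes are therefore uncertain.

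Libraries were summed per tumor and fitted with edgeR 4.0.16 in R 4.3.3 (filterByExpr, TMM factors, quasi-likelihood test, two-sided, Benjamini-Hochberg adjustment over 16008 genes, threshold 0.05). Standard errors of fold changes were derived from that fit, as the absolute log2 fold change over the square root of its F statistic. Log2 CPM used a prior count of 2, and for the comparison at a like level genes within 0.5 log2 units were taken. DESeq2 1.42.0, RLE factors, no filter, libraries as units and leaving out tumors were alternatives. The tests were checked on simulated counts. Tables and plots used Python 3.11.15, pandas 2.3.3 and matplotlib 3.10.9.

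Symbols were matched for 26269 of 32105 genes, and 29 of 304 list entries were not matched. A capital symbol shared by several genes is printed with its identifier. Neighbours came from the order of RefSeq genes in another assembly, GRCz12tu, used for names only. The 5 genes and all lists were chosen with earlier results of these data known. Named genes are the 5, their paralogues, up to 5 called genes per partner list and direction by smallest p, the 3 nearest genes to each of the 5 among genes with a symbol whose average log2 CPM over high tumors reached 1, and up to 2 markers per cell type list. A called gene that this rule names is not reported here. A few further genes were named after their values were seen: T-cell markers, neighbours and NF-kB subunits. So were genes that share a symbol or family with a called one. Libraries of a tumor differed beyond counting noise in all 9 pairs (chi-square per degree of freedom 1.309 to 31.29, genes with at least 10 counts, Pearson r of log2 CPM 0.9809 to 0.9951), so none was counted as a repeat.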

Additional observations from a re-analysis of the deposited data

Results flagged for a closer look

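In the high group, 15 genes (the 5 genes and their tested paralogues) were examined for a single tumor far from the rest, and 2 were marked, both paralogues. DACH2 (ENSDARG00000010132) stood at 6.492 CPM in tumor 13.1.1, and its gap to the nearest tumor was 0.727 of the range of the group, above Dixon's 95% critical value for 8 values. The same measure for hivep3a (ENSDARG00000075928) was 0.57, from 0.8933 CPM in tumor 15.2, which is 18 counts. Chance marks about 1 in 20 groups of normally distributed values. The measure was taken on CPM without a log, and whether the CPM of such low genes is so distributed was not tested. None of the 5 genes, which were chosen as uniformly high, was marked.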

How the results depend on the processing

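Since the 5 genes were selected on these tumors, their direction under other settings is fixed by that choice and is no sign of stability; only the size is given. Leaving out each tumor gave log2 differences of 4.23 to 4.52 for dachc, 9.57 to 10.60 for B3GNT5, 4.41 to 4.86 for marcksl1a, 2.65 to 3.0 for HIVEP2 and 4.42 to 5.44 for FAM78A. CVs over the high tumors with a tumor left out were 7.65% to 11.2% for dachc, 36% to 44.8% for B3GNT5, 21.3% to 28.3% for marcksl1a, 11.8% to 18.5% for HIVEP2 and 21.5% to 27.6% for FAM78A. The mean log2 CPM of B3GNT5 in the low tumors, -2.39, was -3.12 with a prior count of 0.5 and -1.70 with 1 library per tumor, since 7 counts carry it.

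Counts of calls moved far more, and the cause was not tested. Over all genes, 641 higher and 832 lower calls became 1754 and 1417 with DESeq2, and 2688 and 2272 with libraries as units, which count a tumor more than once. With the replicate block as well they were 2543 and 2199, and in the partner lists 31 higher and 17 lower, against 33 and 17 with libraries but no block and 18 and 11 with tumors. Deviations of libraries with the same replicate number had correlations of -0.28 to 0.27 over tumor pairs, median -0.01, so the numbers do not pair them. Leaving out 1 tumor gave 196 (without 10.2) to 745 (without 8.3) higher calls, 385 without 9.2, and 403 to 1044 lower calls. In the partner lists it gave 3 to 20 higher calls, 7 without 9.2, and 4 to 11 lower calls, 6 without 2.1 and 7 without 15.2.

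Directions turned for 3 uncalled paralogues. The difference of hivep3b was -0.71 with DESeq2 and -0.73 to 0.50 with a tumor left out. That of DACH2 (ENSDARG00000010132) ranged from -0.80 to 0.29, and that of hivep2b from -0.04 to 5.37.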
